A study of Mus musculus with 6 samples.

Results

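MicroRNA genes are described here as a class, read from the probe sets of a whole-transcript array that carry their names. A member was a gene whose probe set had exactly 1 gene symbol in the platform annotation, with that symbol naming a microRNA gene and not a microRNA host gene. The annotation gave 174 such probe sets for 169 genes, out of 7486 genes with a symbol and 16383 probe sets in all. Where a gene had more than 1 probe set, the one with the highest mean over the arrays was used. The 6 arrays came from Melan-a cells, a permanently growing mouse melanocyte culture of C57BL/6 origin that makes pigment, labelled female and grown in medium with serum and the phorbol ester TPA. The siDicer cells received a small interfering RNA aimed at Dicer and the siScr cells a control small interfering RNA, and both were lysed 24 hours later. Each group held 3 arrays, 1 each from cells at passages 47, 54 and 56, and an siDicer array was paired with the siScr array of the same passage. All 6 arrays come from 1 cell line, so no p-value measures the spread between lines. The p-values of the paired comparison rest on how the siDicer minus siScr difference varied over the 3 passages, with variance pooled over probe sets.

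Primary microRNA transcripts are cut in the nucleus by Drosha with its partner Dgcr8 into hairpin precursors. Dicer then cuts the hairpin in the cytoplasm, and 1 of the 2 strands is loaded into an Argonaute protein, which pairs with messenger RNAs mainly through the seed, bases 2 to 8 of the mature microRNA. Many microRNA genes lie inside introns of longer genes and are transcribed with them, while others have promoters of their own. In pigment cells, loss of Dicer is known to deplete mature microRNAs, and several microRNAs have been studied as regulators of melanocyte growth and of melanoma. Whether a probe set of this array reads the primary transcript, the hairpin or the mature strand is not stated in the labels, so each value is called the signal of the microRNA gene. Dicer1 itself was not analysed here, and the groups rest on their labels.

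The mature sequences of the microRNA genes that the results turn on are shown first, taken from the RefSeq annotation of GRCm38.p6, with the seed in capitals and all written 5′ to 3′. The first set belongs to the genes with the smallest p between siDicer and siScr cells for which the sequence table held an entry. Mir872 gives a mature strand from each arm, at chr4:94665167-94665187 and chr4:94665206-94665227 on the plus strand. Mir129-2 and Mir103-2 also give a strand from each arm, of which the 5p strand of Mir129-2 and the 3p strand of Mir103-2 are shown. These lie at chr2:94241419-94241439 on the minus strand and at chr2:131288103-131288125 on the plus strand.
mmu-miR-872-5p: aAGGUUACuuguuaguucagg
mmu-miR-872-3p: uGAACUAUugcaguagccuccu
mmu-miR-129-5p: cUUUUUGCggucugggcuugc
mmu-miR-103-3p: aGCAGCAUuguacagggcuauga

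The next set holds 2 neighbouring pairs of genes whose members share a seed. Mir181a-2 (chr2:38852741-38852763) and Mir181b-2 (chr2:38853845-38853868) lie on the plus strand, and their 5p strands share the seed ACAUUCA and differ at 3 positions, compared base by base from the 5′ end. Mir15b (chr3:69009775-69009796) and Mir16-2 (chr3:69009918-69009939) also lie on the plus strand, and their 5p strands share the seed AGCAGCA and differ at 8 positions.
mmu-miR-181a-5p: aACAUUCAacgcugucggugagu
mmu-miR-181b-5p: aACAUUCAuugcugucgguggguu
mmu-miR-15b-5p: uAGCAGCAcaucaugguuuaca
mmu-miR-16-5p: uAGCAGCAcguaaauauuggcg

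The last set is the miR-30 family, the largest group with a common seed among the 97 members in the sequence table. Its 4 measured genes, Mir30a, Mir30c-1, Mir30c-2 and Mir30e, share GUAAACA, and Mir30c-1 and Mir30c-2 give the same 5p strand from different chromosomes.
mmu-miR-30a-5p: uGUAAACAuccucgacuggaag
mmu-miR-30c-5p: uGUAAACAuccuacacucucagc
mmu-miR-30e-5p: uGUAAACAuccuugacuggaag

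The probe sets measured were not an even sample of the mouse microRNA genes. By the chromosome in their probe set number, 22 members lay on chromosome 1, 103 on chromosome 2, 22 on chromosome 3 and 22 on chromosome 4. All 169 were found in the RefSeq gene table, and 97 of them in its microRNA sequence table. For 4 members RefSeq gives another chromosome than the probe set number: Mir7652 on 11, Mir6364 on 16, Mir3098 on 6 and Mir378c on 14. What those 4 probe sets read is therefore less certain. The same holds for the probe set used for Mir1954, whose number does not fall beside that gene's RefSeq position. A group of 28 genes had values identical on all 6 arrays to those of another member, in 7 sets, so the 169 genes carried 148 distinct profiles. All 28 carried names of the Mir466, Mir467 and Mir669 families, and the largest set, Mir669a-4 to Mir669a-12, held 9 genes with a mean log2 signal of 1.95. Genes of 1 set cannot be told apart on this array and are not separate observations.

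Signal is given in log2 units, as deposited, and 1 unit is a doubling. Levels of different probe sets depend on their own probes and were not read as relative amounts of RNA. Background was judged from 426 receptor genes of smell and pheromone sensing (the Olfr, Or and Vmn families), whose median was 2.78 and whose 95th percentile was 4.22. The microRNA genes ran from 1.94 to 12.11 with a median of 4.06, and the median over all probe sets was 4.62. Of the 169 genes, 83 lay above the receptor percentile, which is 49.1%, against 57.8% of all probe sets. Mir1954 had the highest signal at 12.14 ± 0.07 in siDicer cells and 12.08 ± 0.07 in siScr cells (SD, n = 3 each), and its second probe set averaged 9.24. By probe set number, only the second falls beside the RefSeq position of Mir1954, so what the first reads is less certain. Mir3471-2 at 8.54, Mir684-2 at 8.49, Mir684-1 at 8.46, Mir466f-1 at 8.18, Mir466f-3 at 8.03, Mir1956 at 7.93, Mir467c at 7.65, Mir5123 at 7.50 and Mir5126 at 7.24 made up the rest of the upper 10.

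Base composition went with signal across these genes. For the 85 members with a RefSeq hairpin on the probe set's chromosome, GC content ran from 33.8% to 83.1% with a median of 48.1%, and Spearman's rho between GC content and mean signal was 0.47. The 43 hairpins at or over that GC content had a median signal of 5.18, and the 42 under it 3.35. Hairpin length gave a rho of 0.09. These are descriptions across genes measured on the same arrays, and the part of base composition in the levels was not tested.

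No microRNA gene passed the threshold between siDicer and siScr cells. In limma's paired fit, with Benjamini-Hochberg adjustment over all 16383 probe sets and an adjusted p under 0.05 as the threshold, 0 of 169 were called. Over all probe sets 163 were called (0.995%), 124 of them higher and 39 lower in siDicer cells. That count was 0 without the passage 54 arrays or without the passage 56 arrays, 35 without the pairing, and 54 higher to 30 lower after quantile normalization or 62 to 31 after cyclic loess. At an unadjusted p under 0.05 the microRNA genes gave 27 of 169, where 15.7% of all probe sets reached that level. Of these, 18 were higher (10.7%, with 8.82% of all probe sets) and 9 lower (5.33%, with 6.85% of all probe sets) in siDicer cells. Counting each identical set once left 14 higher and 9 lower, and the fit without pairing gave 11 higher and 5 lower at that level and 0 past the adjusted threshold. Neither share was far from that of the whole array.

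The changes were small, and in RNA of a whole culture, fewer cells with a transcript and less of it per cell cannot be told apart. Their median was -0.01, as it was over all probe sets, and they ran from -0.36 for Mir7652 to 0.60 for Mir872. Mir872 was the only gene whose change exceeded 1.5-fold. For 163 of the 169 genes the 95% interval of the change lay within 1.5-fold either way, and for 168 within 2-fold, the exception being Mir378c. The median of the intervals' reach to each side was 0.16 log2 units. In 24 genes, or 19 distinct profiles, the siDicer array was above its partner at all 3 passages, where 17.9% of all probe sets were. In 36 genes, or 28 profiles, it was below at all 3, where 22.6% of all probe sets were. The 3 siDicer values lay wholly above the 3 siScr values for 5 genes, Mir872, Mir30a, Mir1928, Mir3471-2 and Mir3095, where 7.57% of all probe sets did so. They lay wholly below for 6 genes, Mir3093, Mir6364, Mir215, Mir466f-3, Mir669l and Mir876, where 8.29% of all probe sets did so. Genes above the receptor percentile gave 20 of 83 at an unadjusted p under 0.05, where 21.3% of all probe sets above it did. Those not above it gave 7 of 86, where 7.92% of all such probe sets did.

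**Figure D1:**
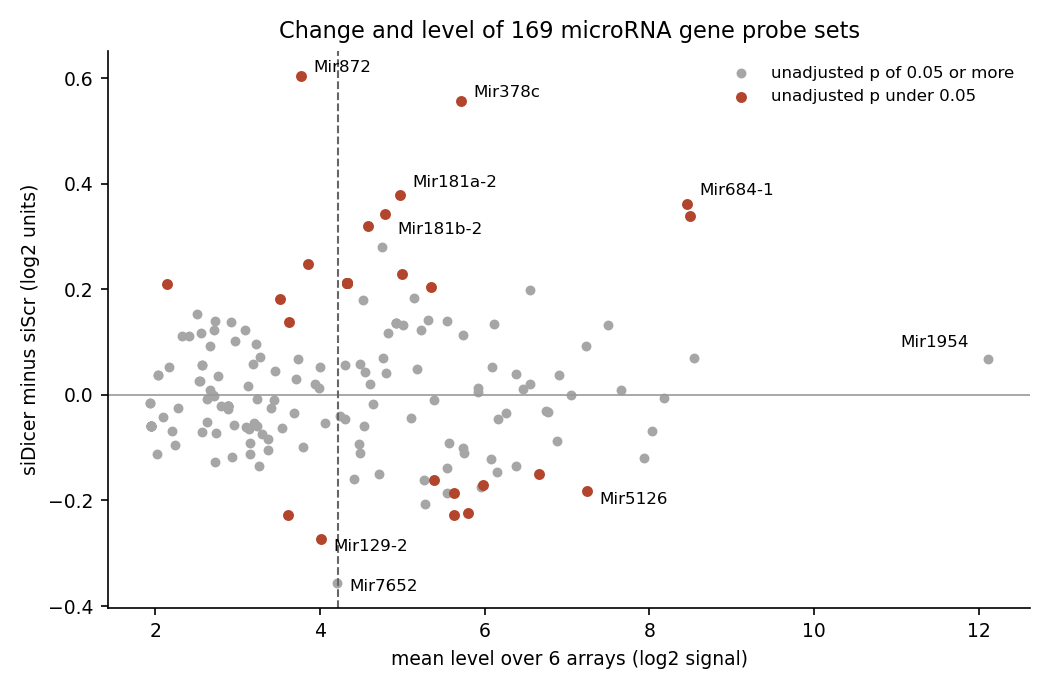
Each of the 169 microRNA genes is plotted by its mean log2 signal over the 6 arrays (x axis) and its siDicer minus siScr change in log2 units (y axis). Red points are the 27 genes with an unadjusted p under 0.05, the dashed line is the receptor percentile of 4.22, and most points lie near 0, with Mir872 at 0.60 left of the dashed line.

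Mir872 came nearest to the threshold. Its signal was 3.86, 3.99 and 4.37 in siDicer cells at passages 47, 54 and 56, against 3.49, 3.41 and 3.50 in siScr cells. All 3 siDicer values stood above all 3 siScr values, and only the passage 56 siDicer array exceeded the receptor percentile. The change was 0.60 with a standard error of 0.10, or 1.52-fold, with a 95% interval from 0.37 to 0.84 (limma, adjusted p = 0.0571, and 0.119 without the pairing). Over 20 alternatives its change ran from 0.46 to 0.72 and its adjusted p from 0.0233 to 0.439. It passed in 5 of them, of which 1 was a looser threshold of 0.1, and without the passage 47 arrays its change was 0.72 (adjusted p = 0.0302). Mir872 lies on the same strand inside Ift74, a subunit of the intraflagellar transport machinery of cilia. Ift74 read 6.77, 7.17 and 7.06 in siDicer cells, against 7.02, 7.31 and 7.16 in siScr cells, a change of -0.17 that did not pass (adjusted p = 0.254). The intervals of the 2 changes, 0.37 to 0.84 for Mir872 and -0.31 to -0.03 for Ift74, did not overlap, and the difference between them was not tested.

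The neighbouring genes Mir181b-2 and Mir181a-2 were also above 0. The miR-181 family is known in mice for tuning T-cell receptor signalling in thymocytes. Mir181b-2 read 4.48, 5.38 and 5.02 in siDicer cells at the 3 passages in rising order, against 4.22, 4.89 and 4.75 in siScr cells. Mir181a-2 read 4.95, 5.44 and 5.09 in siDicer cells, against 4.37, 4.96 and 5.01 in siScr cells. In both genes every siDicer array was above its partner of the same passage, while the groups of 3 overlapped. The changes were 0.34 ± 0.07 for Mir181b-2 (SE, limma, adjusted p = 0.0931) and 0.38 ± 0.10 for Mir181a-2 (SE, adjusted p = 0.169). Without the pairing the adjusted p was 0.668 for Mir181b-2 and 0.53 for Mir181a-2. Mir181b-2 passed when only probe sets above the median level (adjusted p = 0.0440) or only those with 1 gene symbol (adjusted p = 0.0356) were tested. Both genes lie inside Nr6a1, an orphan nuclear receptor gene, on the opposite strand, and Nr6a1 showed a change of -0.01 (adjusted p = 0.952).

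Mir103-2 and Mir129-2 followed on either side of 0. In human cancer cells, miR-103 is known to target DICER1, and miR-129 to target SOX4. Mir103-2 read 4.78, 4.65 and 4.81 in siDicer cells, against 4.68, 4.19 and 4.40 in siScr cells, a change of 0.32 ± 0.08 (SE, limma, adjusted p = 0.157). Only the passage 47 siScr array reached into the siDicer range. Mir129-2 read 3.99, 3.81 and 3.83 in siDicer cells, against 4.28, 3.99 and 4.18 in siScr cells, a change of -0.27 ± 0.06 (SE, adjusted p = 0.114). The siDicer array was below its partner at all 3 passages, and the groups met at 3.99. Mir129-2 lay under the receptor percentile, with a mean of 4.01, and passed only when the test was limited to probe sets with 1 gene symbol (adjusted p = 0.0442).

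The other 5 genes among the 10 of smallest p had changes between -0.23 and 0.21. Mir3093 read 5.69, 5.71 and 5.66 in siDicer cells, against 5.98, 5.98 and 5.78 in siScr cells, with no overlap (change -0.22, adjusted p = 0.172). Mir6364, whose RefSeq chromosome differs from that of its probe set, read 3.45, 3.53 and 3.50 in siDicer cells, against 3.83, 3.67 and 3.66 in siScr cells, also with no overlap (change -0.23, adjusted p = 0.201). Mir5126 and Mir5120 gave changes of -0.18 (adjusted p = 0.209) and -0.17 (adjusted p = 0.23), with the siDicer array lower in every pair and the groups overlapping. Mir466b-2 gave a change of 0.21 (adjusted p = 0.155) at a mean signal of 2.15, under the receptor median.

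**Figure D2:**
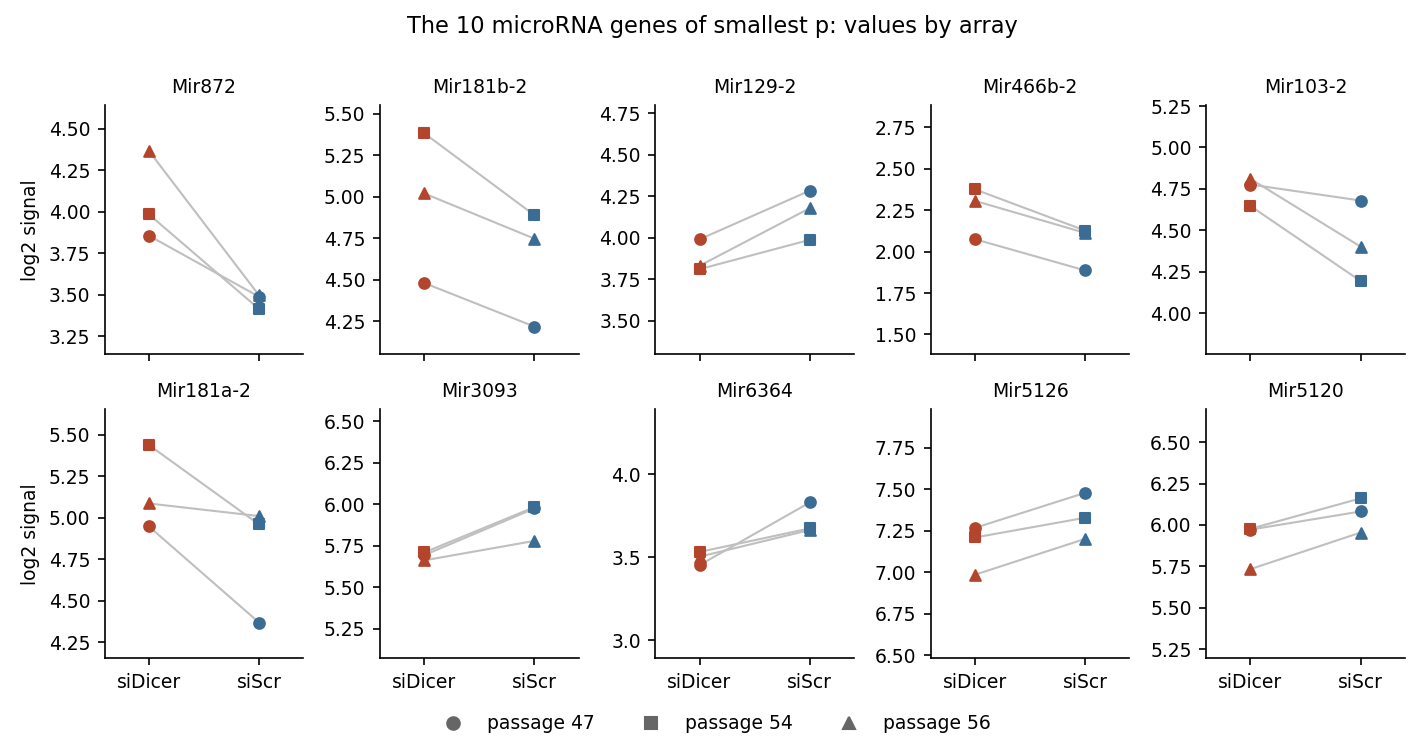
Log2 signal (y axes, each spanning 1.5 units) of the 10 microRNA genes with the smallest p is shown for siDicer arrays (red) and siScr arrays (blue), with a line joining arrays of the same passage. The lines of each gene slope the same way at all 3 passages, and the 3 siDicer points of Mir872 lie above the 3 siScr points.

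Mir378c had the second largest change and the widest interval. It read 5.72, 6.73 and 5.50 in siDicer cells, against 5.53, 5.40 and 5.36 in siScr cells. One array, siDicer at passage 54, stood apart, and the passage 56 siDicer value lay inside the siScr range. The change was 0.56 with a 95% interval from 0.02 to 1.10 (limma, adjusted p = 0.307), and this is another of the 4 genes whose RefSeq chromosome differs. Mir684-1 and Mir684-2, which are named as copies of 1 microRNA and read nearly the same values, gave changes of 0.36 (adjusted p = 0.282) and 0.34 (adjusted p = 0.269). Mir684-1 read 8.34, 8.76 and 8.82 in siDicer cells, against 8.37, 8.01 and 8.46 in siScr cells, so that its passage 47 pair ran the other way.

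MicroRNAs studied in melanocytes or melanoma gave little difference between the groups. Of a list of 38, 11 were measured and 8 of those lay above the receptor percentile. None of the 11 passed (limma, 3 at an unadjusted p under 0.05: Mir26b, Mir30a and Mir199b, where 15.7% of all probe sets were), and their median change was 0.04. Mir26b, of a family linked to growth restraint, read 5.41, 5.29 and 5.24 in siDicer cells, against 5.64, 5.39 and 5.39 in siScr cells, a change of -0.16 (adjusted p = 0.256). The values were lower in every pair, with the passage 47 siDicer value inside the siScr range. Mir31, known as a tumour suppressor lost in some melanomas, averaged 4.61 ± 0.10 in siDicer cells and 4.59 ± 0.05 in siScr cells (SD, n = 3 each). The interval of its change ran from -0.14 to 0.18. Mir34a, a target of p53, averaged 3.14 ± 0.06 in siDicer cells and 3.12 ± 0.05 in siScr cells, under the receptor percentile. Mir149 gave a change of -0.03 (adjusted p = 0.84), Mir375 one of -0.21 (adjusted p = 0.483), Mir10b one of 0.12 (adjusted p = 0.46) and Mir199b one of 0.14 (adjusted p = 0.312).

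The miR-30 family was the largest seed group among the 97 members in the sequence table and the only one of the 3 largest with all its members above the receptor percentile. Mean signals ran from 4.77 for Mir30c-1 to 6.91 for Mir30c-2, and the changes from 0.04 to 0.20. Mir30a read 5.42, 5.35 and 5.57 in siDicer cells, against 5.34, 5.22 and 5.17 in siScr cells, and its groups did not overlap (change 0.20, adjusted p = 0.283). Mir30c-2 averaged 6.93 ± 0.08 in siDicer cells and 6.89 ± 0.10 in siScr cells (SD, n = 3 each). Of the group with the seed AUUGCAC, Mir32, Mir92b and Mir367, 1 was above the percentile, Mir92b at 6.38 with a change of -0.13 (limma, adjusted p = 0.348). Mir302b, Mir302c and Mir302d, whose cluster is known from mouse embryonic stem cells, share the seed CUUUAAC on their 5p strands, and their signals of 2.33 to 2.97 were all under it. The neighbours Mir302a, at 2.63, and Mir367, at 2.17, were under it as well.

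A large group of members came from 1 place. Inside Sfmbt2, a Polycomb-type gene of mouse chromosome 2 whose long intron holds a rodent microRNA cluster, lay 66 of the 169 genes, with 45 distinct profiles, of which 24 genes were above the receptor percentile. Sfmbt2 itself read 4.81, 5.28 and 4.91 in siDicer cells, against 4.84, 5.23 and 4.85 in siScr cells, a change of 0.02 (limma, adjusted p = 0.863). Within each group its passage 54 array was the highest. The 66 microRNA genes had changes from -0.19 to 0.21 with a median of -0.02. At an unadjusted p under 0.05, 6 were higher and 0 lower, where 8.82% of all probe sets were higher and 6.85% lower. Of those 6, 5 were Mir467a copies with identical values, so they stand for 1 measurement: 4.43 ± 0.16 in siDicer cells and 4.22 ± 0.06 in siScr cells (SD, n = 3 each), a change of 0.21 (adjusted p = 0.254). The 6th was Mir466b-2. By name, the 12 Mir467 genes had a median change of 0.16 with every copy counted and of 0.07 with each of their 6 distinct profiles counted once. The median was 0.00 for the 23 Mir466 genes and -0.06 for the 30 Mir669 genes, and also with each of their 17 and 21 profiles counted once, and no gene of these 3 names was called. Of these names, 11 of the 12 Mir467 genes were above the receptor percentile, with 7 of the 23 Mir466 genes and 7 of the 30 Mir669 genes.

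**Figure D3:**
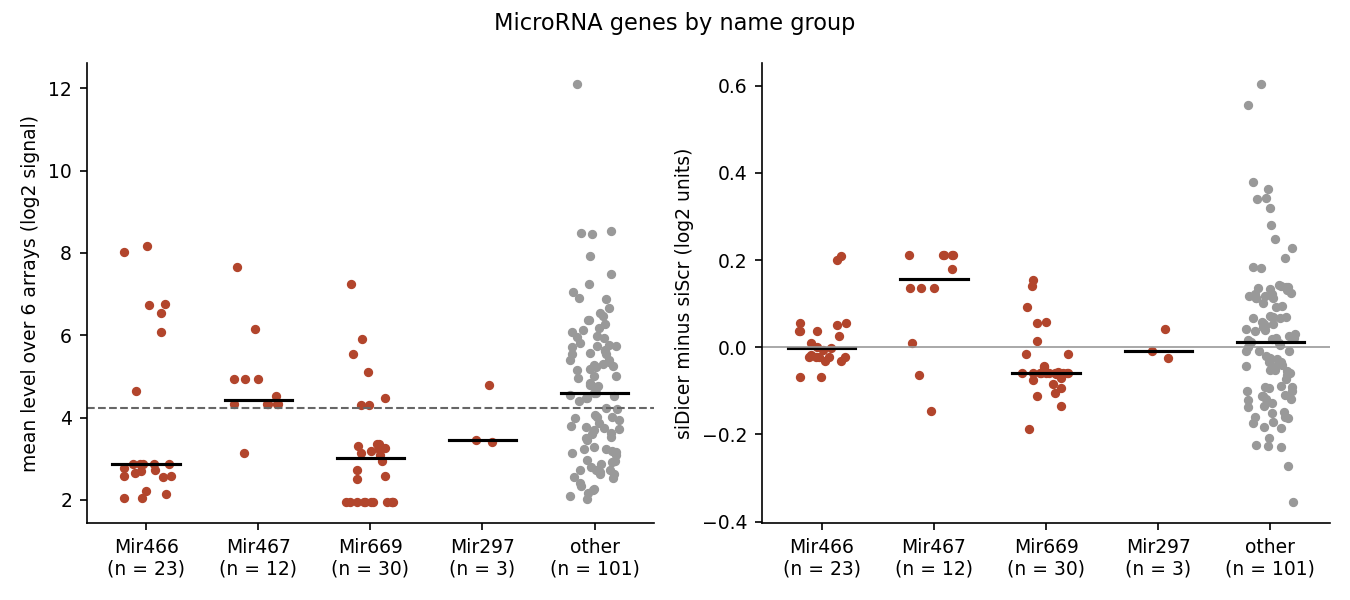
Mean log2 signal over the 6 arrays (left) and siDicer minus siScr change in log2 units (right) are shown for each microRNA gene by name group, with black bars at the group medians and the receptor percentile as a dashed line. Mir467 genes have a median change of 0.16 with every copy counted (0.07 with each distinct profile counted once) and the microRNA genes of other names one of 0.01, and points in a row are often genes with identical values.

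For microRNA genes inside longer genes, the signal of the containing gene could be set beside them. RefSeq places 54 members inside a gene on the same strand, 13 inside one on the opposite strand only and 22 in none. For 76, of which 66 are those in Sfmbt2, the tables lack the strand of the member, the containing gene or both. The 4 genes with a differing chromosome were not placed. Of the same-strand members, 40 had a measured containing gene, 39 genes in all. Of these 39 genes, 2 passed the threshold between siDicer and siScr cells in limma's paired fit, Fndc3b and Tmem245, where 0.995% of all probe sets did. None of the 40 microRNA genes passed, and 8 of them had an unadjusted p under 0.05. That level was reached by 13 of the 39 containing genes, whose median signal was 7.60. It was reached by 15.7% of all probe sets and by 21.3% of those above the receptor percentile. Fndc3b, a fibronectin type III domain protein, rose in siDicer cells, at 8.96, 9.21 and 9.09 in siDicer cells, against 8.29, 8.51 and 8.23 in siScr cells (change 0.74, adjusted p = 0.0226). Its microRNA Mir3092 read 6.62, 6.72 and 6.40 in siDicer cells, against 6.80, 6.77 and 6.62 in siScr cells, a change of -0.15 (adjusted p = 0.312). The intervals, 0.59 to 0.89 for Fndc3b and -0.30 to 0.00 for Mir3092, did not meet. Tmem245, a membrane protein gene, rose as well, at 8.58, 8.67 and 8.79 in siDicer cells, against 8.06, 8.25 and 8.20 in siScr cells (change 0.51, adjusted p = 0.031, and 0.0586 without the pairing). Its microRNA Mir32 read 3.88, 4.26 and 3.81 in siDicer cells, against 3.53, 3.81 and 3.86 in siScr cells, a change of 0.25 (adjusted p = 0.313), under the receptor percentile. Over the 40 pairs, 24 had changes of the same sign, and Spearman's rho between the changes was -0.15. The difference between a microRNA gene and its containing gene was not tested for any pair.

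Of the 8 containing genes of highest signal, which do not include Tmem245, only Fndc3b passed. B4galt1, a galactosyltransferase, had a change of 0.19 and its Mir5123 one of 0.13, with Mir5123 at 7.82, 7.22 and 7.65 in siDicer cells, against 7.46, 7.43 and 7.41 in siScr cells. Nfyc, a subunit of a CCAAT-binding factor, had a change of 0.05, with 0.07 for Mir30c-1 and 0.13 for Mir30e. Eif4e, the cap-binding translation factor, had a change of -0.08, with -0.12 for Mir1956. No gene of these 3 pairings was called. Dst, a cytoskeletal linker, had a change of 0.30 (limma, adjusted p = 0.0838), and Mir6896 one of 0.04. For Cep170, which codes for a centrosomal protein, the change was -0.33 (adjusted p = 0.059), and for Mir350 it was 0.12. Erp44, a chaperone of the secretory pathway, had a change of 0.24 (adjusted p = 0.121), and Mir1958, at a mean signal of 2.27, one of -0.02. Ppp1r7, a regulator of protein phosphatase 1, had a change of 0.06, and Mir6902 one of 0.09. R3hdm1, which contains Mir128-1 and was picked after its value was seen, had a change of -0.37 (adjusted p = 0.0539), and Mir128-1 one of 0.23 (adjusted p = 0.275). Pank2, which contains Mir103-2, had a change of -0.13 (adjusted p = 0.348).

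**Figure D4:**
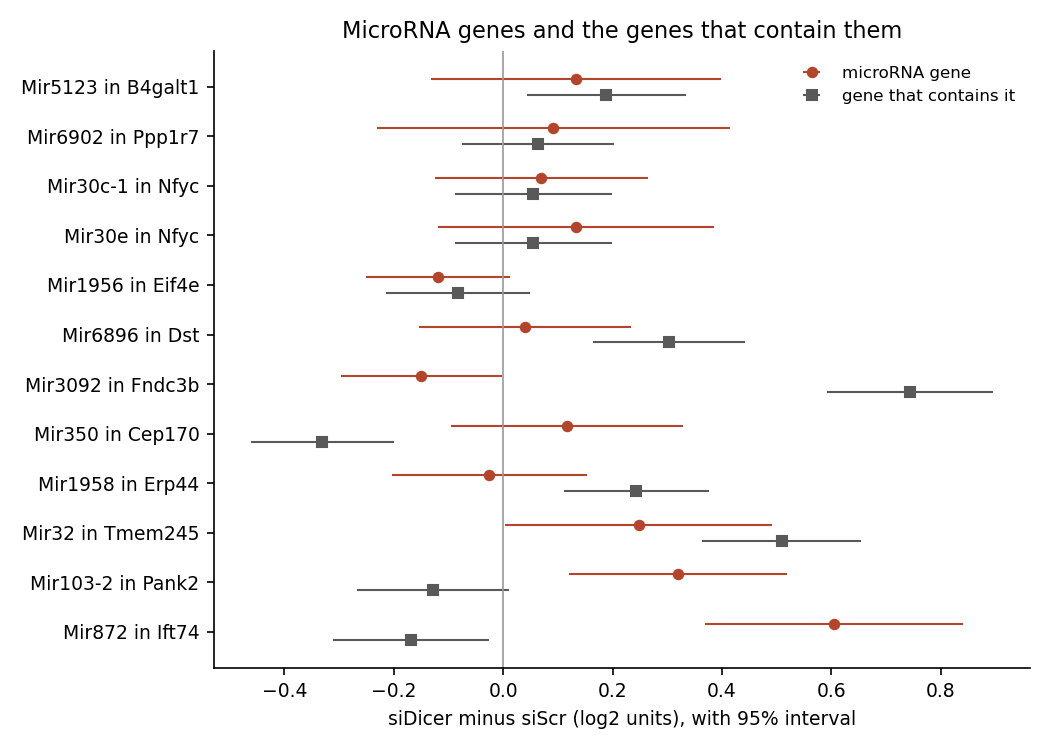
The siDicer minus siScr change in log2 units, with its 95% interval (x axis), is shown for microRNA genes (red circles) and for the genes that contain them on the same strand (grey squares). The upper 9 rows are the 8 containing genes of highest signal, and Tmem245, Pank2 and Ift74 were added after their values were seen. The intervals of Mir872 and Ift74 and of Mir3092 and Fndc3b do not overlap.

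Between the passages, 1 microRNA gene was called. The mean of passages 54 and 56 was set against passage 47. Each passage was 1 siDicer and 1 siScr array, so passage and day of culture cannot be told apart. No passage was repeated within a group, so the SE and p of this contrast do not measure the spread between cultures of 1 passage. Mir181b-2 rose at the later passages: its mean over both groups was 4.35 at passage 47, 5.14 at passage 54 and 4.88 at passage 56. The difference was 0.66 ± 0.07 (SE, limma, adjusted p = 0.0270), seen in siDicer and in siScr cells alike. Its adjusted p was 0.196 without the passage 54 arrays, where the difference was 0.54, and 0.393 in the test without moderated variance. It was the only member called of 169, where 56 of 16383 probe sets (0.342%) were. At an unadjusted p under 0.05, 9 microRNA genes were higher (8.45% of all probe sets were) and 14 lower (7.03% of all probe sets were) at the later passages.

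Mir181a-2, the neighbour of Mir181b-2, averaged 4.66 at passage 47, 5.20 at passage 54 and 5.05 at passage 56, a difference of 0.47 ± 0.11 that did not pass (SE, limma, adjusted p = 0.163). It passed together with Mir181b-2 when the passage 56 arrays were left out (difference 0.54, adjusted p = 0.04998). Mir15b averaged 5.27, 5.58 and 5.76 at the 3 passages in rising order, a difference of 0.40 ± 0.08 (SE, adjusted p = 0.12), and siDicer and siScr cells had the same order. The miR-15 and miR-16 microRNAs are known to target the survival gene BCL2 in human leukaemia cells. Mir16-2, which lies within 10 kb of Mir15b, showed a difference of -0.09 (adjusted p = 0.735). Both lie inside Smc4, a condensin subunit, whose own strand the tables do not give. Smc4 had a passage difference of 0.36 (adjusted p = 0.132). Mir1953 was lower at the later passages by value, with a difference of -0.31 (adjusted p = 0.135), and so were Mir5103 with -0.30 (adjusted p = 0.168), Mir298 with -0.28 (adjusted p = 0.172), Mir149 with -0.27 (adjusted p = 0.202), Mir1956 with -0.20 (adjusted p = 0.22) and Mir551b with -0.20 (adjusted p = 0.225). Mir466b-2 had a difference of 0.25 (adjusted p = 0.162).

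Eng, the endoglin gene of the TGF-beta receptor complex, contains Mir1954 on the same strand. Eng fell at the later passages, by a difference of -1.26 (limma, adjusted p = 0.000736), with 8.59, 7.33 and 7.25 in siDicer cells and 8.43, 7.33 and 7.10 in siScr cells at passages 47, 54 and 56. Mir1954 has 2 probe sets, and the annotation gives the position of neither. By probe set number among the plus-strand members of chromosome 2, the second one falls between Mir199b and Mir181a-2, whose RefSeq positions lie on either side of Mir1954, and the first does not fall beside it. The second averaged 9.19, 9.22 and 9.30 at passages 47, 54 and 56, a difference of 0.07 (adjusted p = 0.696). The first, with the higher signal, averaged 12.10, 12.07 and 12.17, a difference of 0.02 (adjusted p = 0.89). The difference between Eng and either of them was not tested.

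**Figure D5:**
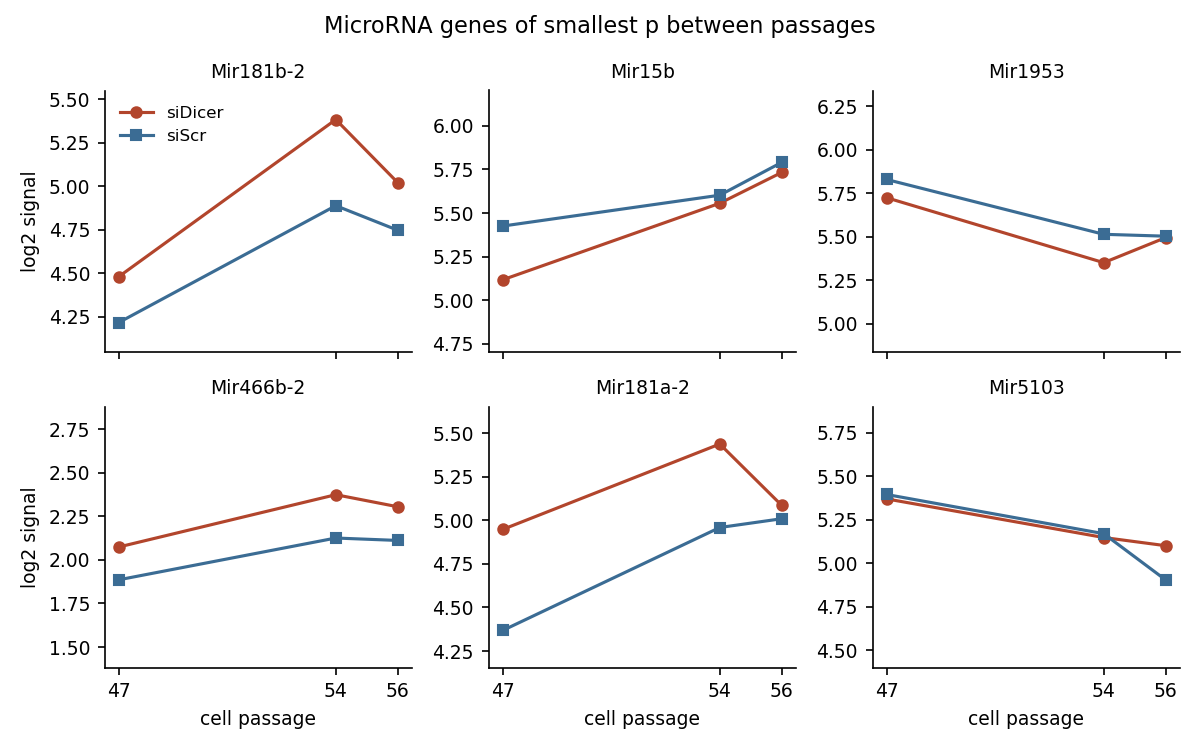
Log2 signal (y axes, each spanning 1.5 units) of the 6 microRNA genes with the smallest p between passages is plotted against cell passage (x axis) for siDicer cells (red circles) and siScr cells (blue squares), 1 array per point. Mir181b-2 is lowest at passage 47 in both groups, and Mir15b is ordered 47, 54, 56 in both.

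Genes of the microRNA pathway were measured in part. Of a list of 42 symbols, older and newer names included, 11 were measured and all 11 lay above the receptor percentile. Xrn2, a nuclear exonuclease that also degrades microRNAs in the worm, fell in siDicer cells, with 8.15, 8.34 and 8.35 in siDicer cells, against 8.74, 8.97 and 8.93 in siScr cells. The groups did not overlap, and the change was -0.60 (limma, adjusted p = 0.0231, and 0.0440 without the pairing). The other 10 did not pass the threshold, which 0.995% of all probe sets passed. Tsn, translin, had a change of -0.22 (adjusted p = 0.176) and Ago3, an Argonaute, one of -0.20 (adjusted p = 0.177), each lower in every pair. The median change of the 11 was 0.00.

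The arrays were alike as a whole, with array medians between 4.58 and 4.64 and correlations from 0.994 to 0.997 over all probe sets and from 0.990 to 0.996 over the microRNA genes. Of 14 melanocyte markers 4 were measured and all lay above the receptor percentile, led by Tyrp1 at 12.86 in siDicer cells and 12.83 in siScr cells. One of the 4, Mreg, a gene of melanosome transport, rose in siDicer cells (change 0.62, limma, adjusted p = 0.0435, and 0.0877 without the pairing). Mreg was the only marker of the 4 called, where 0.995% of all probe sets were. Of 28 markers of fibroblasts, keratinocytes, immune and endothelial cells 17 were measured and 13 lay above the receptor percentile. In limma's paired fit 0 were called and 5 had an unadjusted p under 0.05. That level was reached by 15.7% of all probe sets and by 21.3% of those above the receptor percentile. Among the 5, the fibroblast genes Col5a1 (change 0.19) and Postn (change 0.25) were higher in siDicer cells in every pair, and the other 3 were of the immune list. Group means ran from 2.84 to 7.29 in siDicer cells and from 2.85 to 7.10 in siScr cells. Of the immune list 7 were measured and 5 lay above the receptor percentile. C1qa (change -0.29), C1qb (change -0.20) and Fcer1g (change -0.25) were lower in siDicer cells in every pair, with unadjusted p of 0.0126, 0.0368 and 0.0100 in limma's paired fit. Their adjusted p of 0.190, 0.283 and 0.176 did not pass. C1qc (change -0.03) and Cd52 (change -0.09), also above the receptor percentile, were each higher in siDicer cells in 1 pair. The leukocyte marker Ptprc was at 2.84 in siDicer cells and 2.85 in siScr cells, near the receptor median, as was Cd48. The markers' part in the microRNA gene values was not tested.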

How the data were processed

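RNA of 6 cultures was measured on mouse Clariom D arrays with WT PLUS labelling, per the labels' protocols. The deposited log2 signals, 1 per probe set and array, were produced by the authors in Expression Console of Affymetrix, as the submitters' processing notes list. Its version, background correction and normalization are not stated there, and scaling between arrays would hide a shift shared by most transcripts. The files' probe set numbers lie almost wholly on chromosomes 1 to 4, and no column of another sample was present. Symbols came from the platform annotation: 7530 probe sets had 1 symbol, 455 several and 8398 none. Names, strands and sequences came from RefSeq tables of GRCm38.p6, and the probe sets' own build is unknown. Only microRNA genes with a single symbol were members, so 65 more genes that the annotation lists with a second microRNA name were left out.

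The comparison used lmFit and eBayes, without trend, of limma 3.58.1 under R 4.3.3: siDicer minus siScr with replicate number as a block, over 16383 probe sets, with Benjamini-Hochberg adjustment and a threshold of 0.05. Values printed after ± are SD or SE as marked. The passage contrast came from the same fit, and its p-values do not measure the spread between cultures of 1 passage. Every adjusted p in the text is limma's. The block is used because replicates 1, 2 and 3 were passages 47, 54 and 56 in both groups, per the labels. With its group mean taken off, an siDicer array correlated with the siScr array of the same number at r of 0.44, 0.41 and 0.24 over all probe sets, and of 0.33, 0.21 and 0.17 over the microRNA genes. The fit was tested on simulated data. The number of arrays limits the precision.

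The text names the 10 microRNA genes of smallest p, the 10 of highest signal, the measured members of the melanocyte and melanoma list, the 10 of smallest p between passages, the 3 largest seed groups, and the 8 containing genes of highest signal with their 9 microRNA genes. Mir378c, Mir684-1, Mir467a genes, Mir7652, Mir128-1 and genes listed for groups that did not overlap were named after their values were seen. So were Tmem245, Eng, Smc4, Nr6a1, Pank2, R3hdm1 and Ift74. The members, lists and tests were chosen with earlier results of these data known. Alternatives to the block, normalization, filter, variance model and set of arrays are given at the end.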

Additional observations from a re-analysis of the deposited data

How the results depend on the processing

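Between siDicer and siScr cells, the count of 0 microRNA genes held in most alternatives. It was 1 with each array centred on its median (Mir872), 1 with only probe sets above the median level (Mir181b-2), 3 with only probe sets of 1 symbol (Mir872, Mir181b-2 and Mir129-2), 1 with trended and robust variance (Mir872) and 2 at an adjusted p under 0.1. With no replicate block, so without the pairing, it stayed 0, and leaving out replicates gave 0 to 1. The microRNA genes' median change ran from -0.0239 to 0.0200, on both sides of 0, and only the filter at the receptor percentile, with 0.0200, moved it by more than 0.0238, the SD of the 3 pair medians.

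Over all probe sets the 163 calls became 35 with no replicate block, 84 after quantile and 93 after cyclic loess normalization, 388 above the median level, 291 above the receptor percentile, 281 with 1 symbol, 295 with trended variance, 378 at the looser threshold and 0 without moderated variance. Leaving out a replicate gave 0 to 157 with the block, and leaving out 1 array without the block gave 0, 4, 0, 7, 20 and 0.

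Between passages, the 1 microRNA gene became 3 with 1 symbol (with Mir15b and Mir1953), 0 without moderated variance and 0 to 2 without a replicate. The 56 calls over all probe sets became 153, 107, 142, 117, 137 and 0 under the 2 level filters, the 1-symbol test, trended variance, the looser threshold and unmoderated variance, and 19 to 111 without a replicate. Leaving out passage 47 removes that contrast. The 83 microRNA genes above the receptor percentile became 77 when identical values were counted once and 125 when genes listed with a second name were added, an alternative chosen after seeing the data.

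The change of 64 microRNA genes and 23 containing, pathway and marker genes was followed through the alternatives, for the genes named after their values were seen as an addition. None of the 43 with an unadjusted p under 0.05 changed direction, while 22 others did in at least 1 alternative. The 43 were picked by p on the same arrays that the alternatives use, so a kept direction is no separate support. They include the 5 Mir467a genes with identical values. Fndc3b, Tmem245, Xrn2 and Mreg lost their calls without replicate 2 or 3 (adjusted p from 0.113 to 0.152). Mreg also did after quantile (adjusted p = 0.0682) and cyclic loess normalization (adjusted p = 0.0511). R3hdm1, Dst and Cep170 passed in 5 alternatives each and Erp44 in 1. Filters and the 1-symbol test change how many probe sets are tested. The cause of the other moves was not tested. With 3 pairs and 2 residual degrees of freedom, calls rest largely on the pooled variance.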
